A study of Mus musculus with 24 samples.

Results

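Cardiac MECs (carMECs) were compared with renal MECs (renMECs) of non-diabetic mice, in 6 of the 24 tissue regions of the series. The members were the 3 regions labelled as non-diabetic cardiac microvascular endothelial cells (MECs) and the 3 labelled as non-diabetic renal MECs. The mice were male C57BL/6J mice, mock-injected with citrate buffer over 5 days at 8 weeks of age, and their organs were collected 2 months later. The other mice received streptozotocin at 50 mg/kg in the same buffer on the same schedule, which injures the insulin-producing cells of the pancreas. Their hearts and kidneys gave 3 regions each and are used below as a separate set of samples. Formalin-fixed sections were stained for CD31, regions of small vessels were chosen in the CD31+ area, and the barcodes of hybridised Mouse Whole Transcriptome Atlas probes were cut off with ultraviolet light and counted by sequencing. A value therefore belongs to a region and not to a sorted cell, and a region in which fewer cells express a gene cannot be told apart from one in which each cell holds less of its RNA. The titles of 2 of the diabetic heart regions give the organ without the word MEC.

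Each group had 3 mice. The labels do not tie regions to mice, so it is not known whether the 3 regions of an organ came from 3 animals, and heart and kidney regions of the same mouse could not be matched. P-values measure the spread between these regions only.

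Capillary endothelium is specialised by organ. Capillaries of the heart muscle have a continuous wall and take up fatty acids for the surrounding muscle fibres. The kidney holds fenestrated glomerular and peritubular capillaries, which filter plasma and take back fluid and solutes from the tubules. CD31, a junction protein used to find the regions, is shared by endothelium of both organs. The counts carry probe identifiers, and nothing used here pairs an identifier with a gene. Endothelial, muscle, tubule and other cell markers were therefore not read, the label MEC was not checked against them, and only 4 probes are named.

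Total counts of the renal regions were 568886, 263315 and 1451915, and those of the cardiac regions were 391604, 211272 and 521366. All 6 regions were on the same plate and run, and between 96.05% and 96.74% of their reads were aligned. Of 20186 probes with a count in any of the 24 regions, 20185 had one in at least 1 of the 6 regions and 20004 in all 6. Counts per probe were low: the median count was 12, 6 and 31 in the renal regions and 15, 7 and 18 in the cardiac regions, and 3218 probes reached 10 counts in every region. For comparison between regions, a count was divided by the 75th percentile of its region and multiplied by 19.56, the geometric mean of the 6 percentiles. The result is called a scaled count.

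The probe with the smallest p among those higher in carMECs was RTS0070622. Its scaled counts in the renal regions were 10.67, 19.56 and 14.03. In the cardiac regions they were 1896, 2682 and 2846. The lowest cardiac region thus stood far above the highest renal region, and the renal values came from only 12, 11 and 38 counts. The difference was 175-fold (log2 7.45, SE 0.28, edgeR adjusted p = 9.45e-35). RTS0071426 came next on that side, with scaled counts of 12.45, 8.892 and 11.81 in the renal regions and 1421, 1749 and 2181 in the cardiac regions. Here too every cardiac region was above every renal region. The difference was 154-fold (log2 7.27, SE 0.28, adjusted p = 1.23e-34).

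Among the probes lower in carMECs, RTS0080792 had the smallest p. Its renal scaled counts were 25320, 13780 and 23870 and its cardiac scaled counts 30.89, 27.39 and 48.48. In the kidney it was the second most counted probe in regions 1 and 3 and the third in region 2, with 5.01%, 2.94% and 4.45% of all counts of these regions. In the heart it ranked 1132, 1861 and 599. It was 569-fold lower in carMECs (log2 -9.15, SE 0.32, adjusted p = 6.97e-35). RTS0061552, the next of the lower probes, had renal scaled counts of 1337, 1275 and 1662 against 21.62, 13.69 and 22.96 in the heart. Its level in the 3 kidney regions was close, with a mean of 1425 ± 208 (SD, n = 3). The difference was 70-fold (log2 -6.13, SE 0.26, adjusted p = 5.58e-32). In retinal MECs (retMECs) and in retinal neuronal regions, of non-diabetic mice, all 4 probes had mean scaled counts between 8.151 and 25.42, near the lower of their levels in heart and kidney. In diabetic retMECs, RTS0070622 had scaled counts of 54.78, 361.9 and 6.521, the highest from 37 counts in the shallowest region of the series. The retMECs were processed on another plate, and several of their values rest on 1 to 5 counts.

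**Figure D1:**
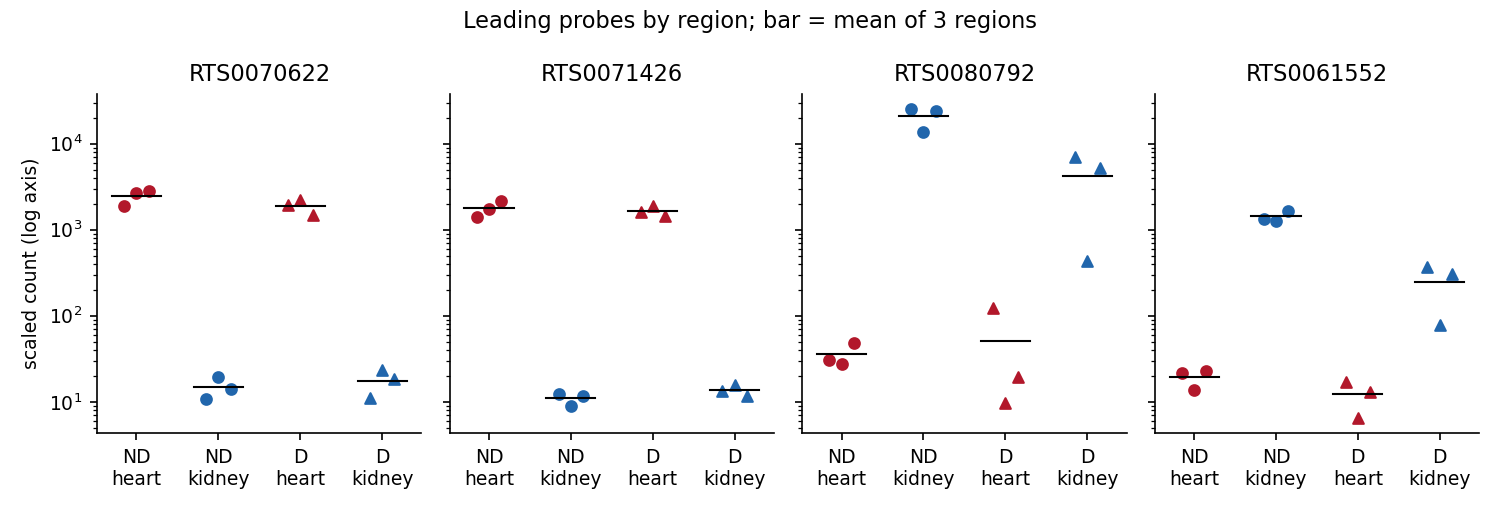
Scaled counts (log axis) of the 4 named probes in each region of the heart (red) and kidney (blue) of non-diabetic (ND, circles) and diabetic (D, triangles) mice, with bars at the mean of 3 regions. RTS0070622 and RTS0071426 lie at or above 1421 in every heart region and at or below 23.48 in every kidney region, while RTS0080792 falls to 436.2 in diabetic renal region 2.

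Across all probes the organs differed widely. Of 16957 probes that passed the filter on low counts, 3234 (19.1%) were higher and 2195 (12.9%) lower in carMECs, 32% in either direction (edgeR quasi-likelihood test, adjusted p under 0.05). The median log2 difference was 1.01 among the higher probes and -1.08 among the lower. The balance between directions depended on how regions were scaled and tested. DESeq2 differs from the other alternatives given here in its test as well as its scaling. Probes higher and lower in carMECs numbered 1483 and 2952 with TMM factors, 6832 and 1525 with total counts, 224 and 2154 with DESeq2, and 615 and 3996 when scaled to the median count. The share of calls that were higher was therefore 59.6% at the 75th percentile and 33.4%, 81.8%, 9.4% and 13.3% with these in turn. The median difference of all tested probes was 0.276 at the 75th percentile and 0.062, 0.567, 0.022 and -0.155 with these. Among the edgeR scalings a higher median went with a higher share. DESeq2, with its other test, had the lowest share but not the lowest median. What set the share was not tested. No probe called at the 75th percentile was called in the opposite direction with any of these alternatives. They shift all differences by nearly the same small amount, so this was largely fixed in advance. Of the 6 regions, 3 moved the count of higher probes by over 1.5 times when left out, to 1986 without renal region 3, 1770 without cardiac region 1 and 1604 without cardiac region 3.

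The regions were also compared in pairs. Over 4695 well-counted probes, log2 scaled counts correlated between 0.835 and 0.877 within the heart and between 0.875 and 0.934 within the kidney, but between 0.321 and 0.368 between organs. These are correlations across probes, which are not independent, and are given as a description. Among 1347 probes with a mean level over 2 times the 75th percentile, the median coefficient of variation was 18.2% within the heart and 14.6% within the kidney (n = 3 regions each). For 7185 of the tested probes (42.4%), every region of one organ was above every region of the other.

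The direction of the difference varied with the level of the probe. Level is given here as the mean multiple of the 75th percentile over the 6 regions. Of 4386 probes at up to 0.6, 29.8% were higher and 0.182% lower in carMECs. Of 3348 probes between 1 and 2, 5.88% were higher and 31.2% lower. Of 971 probes between 2 and 5, 7.21% were higher and 67.0% lower, and of 336 probes between 5 and 20, 9.52% and 67.0%. Among the 40 probes above 20, 8 were higher, 23 lower and 9 not called. Probes at up to the 75th percentile made up 90.5% of the higher calls and 11.4% of the lower calls. Scaling moved these shares: at up to 0.6, 62.8% of probes were higher and 0.0684% lower with total counts, and 4.04% and 1.41% when scaled to the median count. In the latter case probes at up to the 75th percentile made up 72.5% of the higher and 25.1% of the lower calls.

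Median log2 differences of the 6 level classes, from the lowest level to the highest, were 0.64, 0.35, -0.34, -0.96, -0.95 and -0.58. The class between 0.6 and 1 turned to -0.08 when scaled to the median count, with 269 higher and 940 lower probes in place of 1621 and 242. Relative to the median of all probes, the lowest class was at 0.36 and the class between 2 and 5 at -1.24. These distances moved by at most 0.02 under the other scalings of the edgeR fit. A change of scaling shifts all probes by nearly the same amount, so this was fixed in advance and is no test of the pattern. The shape of the count distribution differed between the organs in the same regions: the median count was 0.545, 0.545 and 0.585 of the 75th percentile in the kidney and 0.789, 0.7 and 0.783 in the heart. The part of this shape in the calls was not tested.

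**Figure D2:**
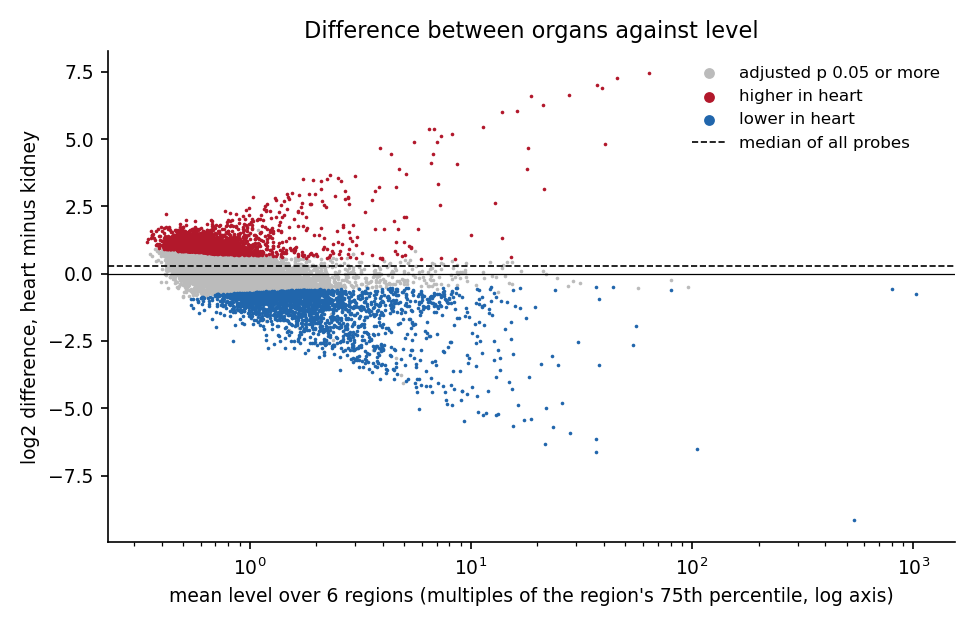
Each point is 1 of 16957 probes, by its mean level over the 6 regions (multiples of the 75th percentile, log axis) and its log2 difference, heart minus kidney. Red and blue points are the 3234 higher and 2195 lower probes, and the dashed line is the median of all probes at 0.276; most red points lie at low levels and small differences, and a thin arm of red points reaches 7.45.

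**Figure D3:**
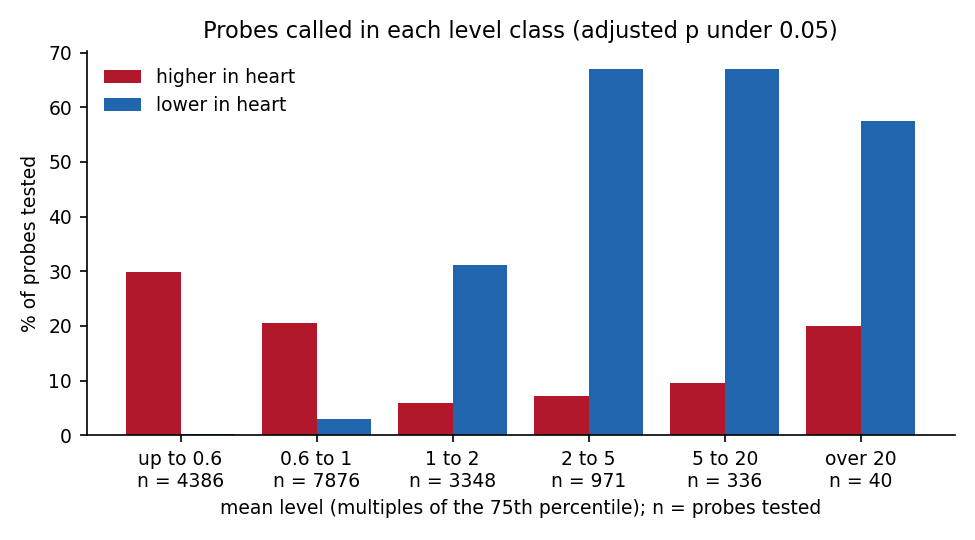
Percent of tested probes called higher (red) or lower (blue) in the heart in each class of mean level, given as multiples of the 75th percentile. With scaling to the 75th percentile, the red bar is the taller in the 2 classes up to 1 and the blue bar in the 4 classes above 1; scaled to the median count, the class from 0.6 to 1 holds more lower than higher probes.

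Most called differences were moderate, and large ones lay more often on the kidney side. Differences over 2-fold were called for 1687 higher and 1250 lower probes. Over 4-fold, 105 probes (0.619%) were higher and 342 (2.02%) lower, and over 8-fold 42 and 123. Over 32-fold, 14 were higher and 18 lower, an order that turned to 17 and 11 with total counts. In these other fits the counts over 4-fold were 83 and 435 with TMM factors and 155 and 267 with total counts. They were 81 and 453 with DESeq2 and 69 and 549 when scaled to the median. Without renal region 3 the count of 4-fold higher probes rose to 222. With every region thinned to the lowest total count of 211272, only 3981 probes passed the filter, against 16957 before. Of these, 292 were called higher and 1408 lower, and 107 and 345 passed 4-fold. Of the probes that passed 4-fold, 90 and 315 were among the 105 and 342. Calls of any size in the same direction were made for 98 and 337 of the 105 and 342 probes after thinning.

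The probes over 4-fold higher were few but took a visible share of the heart's counts. The next values describe the difference by which these probes were chosen and have no test. The 105 probes are 0.52% of all probes. They held 4.76%, 5.86% and 6.22% of the counts in the cardiac regions and 0.265%, 0.276% and 0.245% in the renal regions. The 342 probes over 4-fold lower are 1.69% of all probes. They held 17.9%, 17.0% and 18.9% of the counts in the renal regions, or 18.0% ± 0.96 (SD, n = 3), and 1.72%, 1.8% and 1.74% in the cardiac regions.

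In the organ where they were low, both sets lay near the middle of all probes. The 105 probes had a median level of 0.806 times the median count of the renal region (quartiles 0.63 and 1.14), and 95 of them were at no more than 2 times that count. In the heart they were at 4.94 times the region's median count. The 342 probes lay at 1.04 times the median count of the cardiac regions (quartiles 0.838 and 1.42) and at 10.6 times in the kidney. In the heart, 292 of them were at no more than 2 times the median count and 8 exceeded 5 times. Whether the low organ's values rise above the counts of background probes was not analysed here. The nearest probes inside the 4-fold limit had log2 sizes of 2.006 and 2.004.

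**Figure D4:**
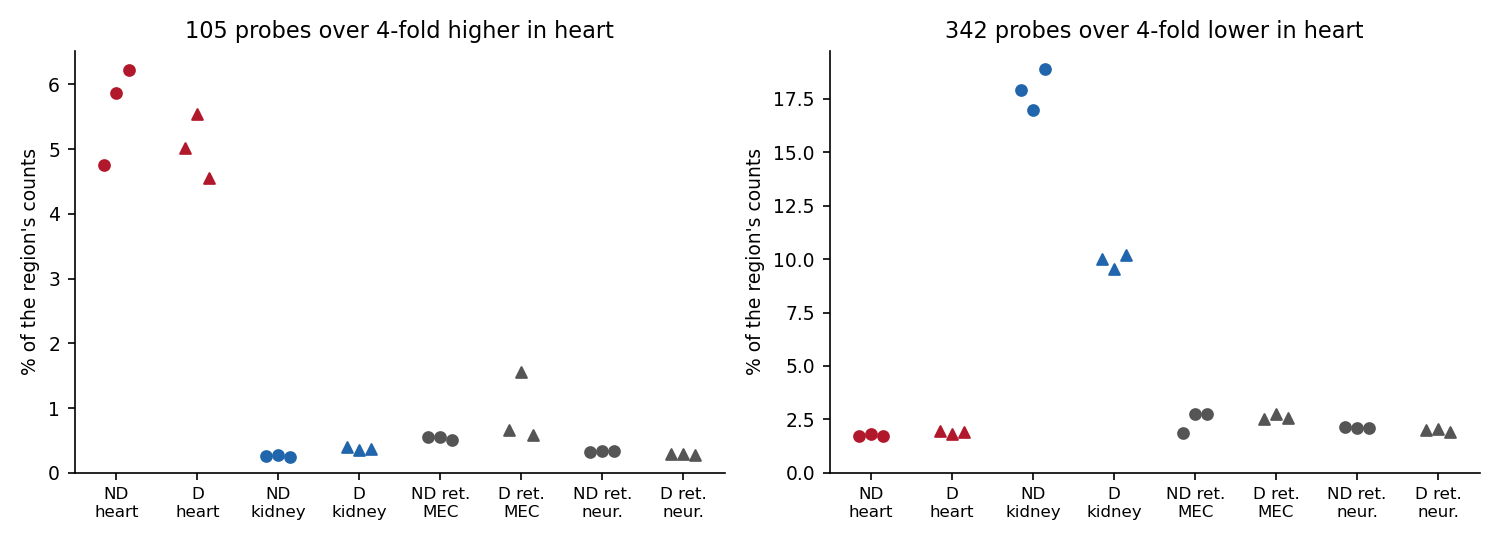
Percent of each region's counts held by the 105 probes over 4-fold higher (left) and the 342 probes over 4-fold lower (right) in non-diabetic heart, in all 24 regions (ND, non-diabetic; D, diabetic; ret., retinal; neur., neuronal). Each point is 1 region: the left set is at 4.56% or more in all 6 heart regions, and the right set at 9.54% or more in all 6 kidney regions.

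Some transcripts were among the most abundant in both organs. The most counted probe was the same in all 6 regions, with 5.06%, 3.98% and 6.01% of counts in the kidney and 2.96%, 3.37% and 4.27% in the heart. It was lower in carMECs (log2 -0.77, SE 0.22, adjusted p = 0.0058), and by -0.51 to -1.2 under the other edgeR scalings. Of the 100 most counted probes of each organ, 33 were shared. Among these, 20 were lower in carMECs and the other 13 were not called, with log2 differences from -2.63 to 0.11. The 20 became 13 with total counts and 30 when scaled to the median count. Of the 67 on the cardiac list alone, 37 were higher, 4 were lower and 26 were not called. All 67 on the renal list alone were lower in carMECs, against 12.9% of all tested probes, and 56 of them by over 4-fold. Being on the list of one organ and not of the other largely fixes the direction, so these counts are a description.

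Renal counts were also held by fewer probes. The 100 most counted probes of a region held 25.2% ± 1.64 of the counts in the kidney and 16.4% ± 1.89 in the heart (SD, n = 3 regions each). The difference was -8.85 percentage points (two-sided exact permutation test, p = 0.1, the smallest that 20 divisions allow). It was -8.87 after thinning every region to the same total count.

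No probe was counted throughout one organ and not at all in the other. The number with at least 10 counts in all 3 regions of one organ and 0 in all 3 of the other was 0, also at minimums of 5 and 20 counts and after thinning. A count of 0 in cardiac region 2, the shallowest, allows a share of up to 0.00142% of its counts. That limit covers counting error only.

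Probes that were not called were not all shown to be alike. Of 11528 such probes, 6366 had a 95% interval of the organ difference that stayed within 2-fold in both directions, and the others had wider or shifted intervals. Among probes with a level over 2, 309 of 338 that were not called stayed within 2-fold.

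The diabetic heart and kidney regions, none of which entered the comparison above, gave the same measure in other samples. They were shallower, with total counts from 115269 to 153319 in the heart and from 217736 to 356967 in the kidney, and 3509 probes passed the filter. In diabetic heart region 2, 79.37% of reads were aligned. Of these, 195 (5.56%) were higher and 750 (21.4%) lower in the heart. Of the 105 probes over 4-fold higher in non-diabetic carMECs, 82 were called higher again, 3 were tested and not called, and 20 did not pass the filter. Of the 342 probes over 4-fold lower, 256 were called lower again, 21 were tested and not called, and 65 did not pass. At these depths a probe passes the filter mainly through the organ where it is high, so the probes that could be tested were largely those that had kept a high level there, and the counts are given as a description. Among calls of any size, 2953 of the 3234 higher probes and 656 of the 2195 lower probes did not pass. Of the higher probes that did, 159 were called higher again, 1 was called lower and 121 were not called. Of the lower probes that did, 676 were called lower again and 863, the larger part, were not called.

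The shares of counts cover every probe of both sets, tested or not. In diabetic heart regions the 105 probes held 5.02%, 5.54% and 4.56% of counts, against 0.397%, 0.344% and 0.373% in diabetic renMECs. The 342 probes held between 9.54% and 10.2% of counts in each diabetic renMEC region, or 9.93% ± 0.35 (SD, n = 3), and 1.94%, 1.82% and 1.9% in diabetic heart regions. Thus every diabetic kidney region lay below every non-diabetic kidney region for these 342 probes, which had been chosen for high values in the latter. In the retina, the 342 probes held between 1.84% and 2.75% of counts in each MEC region and between 1.9% and 2.16% in each neuronal region.

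Of the named probes, RTS0070622 had scaled counts of 1959, 2227 and 1500 in the diabetic heart regions against 11, 23.48 and 18.26 in diabetic renMECs (log2 6.77, adjusted p = 2.03e-14). RTS0071426 kept a log2 difference of 6.91 (adjusted p = 1.99e-15). RTS0080792 was more variable, with 6912, 436.2 and 5154 in diabetic renMECs and 122.3, 9.781 and 19.56 in diabetic heart regions, and its difference of -6.29 missed the threshold (adjusted p = 0.059). RTS0061552 had 366.8, 78.25 and 302.6 in diabetic renMECs and 17.12, 6.521 and 13.04 in diabetic heart regions. It was thus lower in the diabetic heart regions as well (log2 -4.29, edgeR adjusted p = 0.0104). The organ difference itself changed between non-diabetic and diabetic regions by log2 0.65, 0.35, -2.89 and -1.83 for these 4 probes in turn. None of these changes was called (edgeR interaction test, adjusted p between 0.542 and 0.805). On simulated counts that test recovered 33% of 4-fold changes, so a missing call does not show an unchanged difference.

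**Figure D5:**
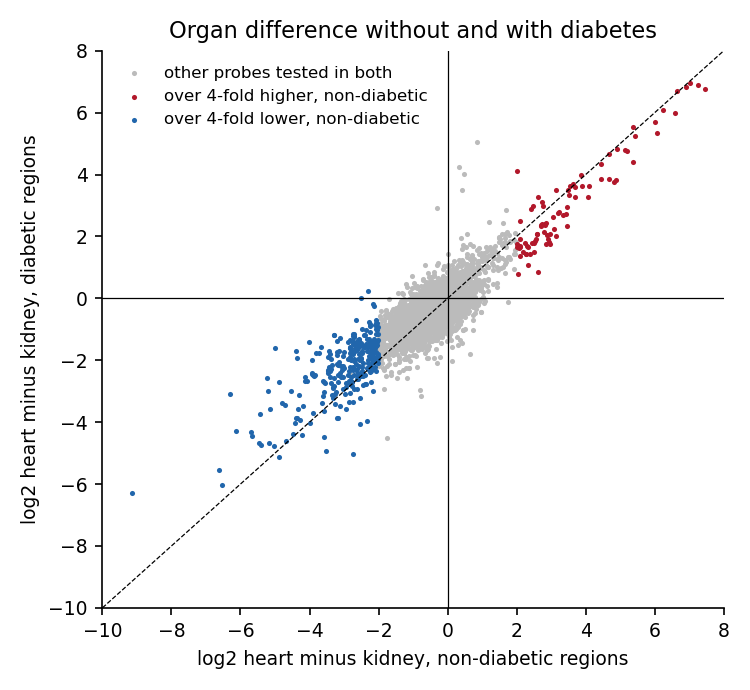
Log2 difference, heart minus kidney, in diabetic regions (vertical axis) against non-diabetic regions (horizontal axis) for 3506 probes tested in both, with the line of equal differences dashed. All 85 probes of the 4-fold higher set that passed the filter in diabetic regions (red) lie above 0 on the vertical axis, and 275 of 277 of the lower set (blue) lie below 0. A probe passes that filter mainly through the organ where it is high, so these signs were largely fixed in advance. The median of all 3506 probes was -0.4 in diabetic regions.

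The difference between the organs was tested for a change with diabetes in 1 model of the 12 regions. Of 14414 probes, 18 (0.125%) had an organ difference that differed between non-diabetic and diabetic mice. In 17 of them the heart was lower relative to the kidney in non-diabetic regions than in diabetic ones. The median of this change was -2.53 on the log2 scale. Their median scaled count was 212 in non-diabetic and 69.2 in diabetic kidney regions, and 26.5 and 26.4 in the heart regions. The 17 were chosen by this change, so these values describe it and have no test of their own.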

How the data were processed

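Counts of 6 regions were compared, and those of the other 18 were used where stated. For each region the authors deposited unscaled counts, made with GeoMx NGS Pipeline 2.3.4, which aligned reads to probe barcodes and merged reads sharing a molecular identifier. Probes with a count of 0 are not listed and were set to 0. The quality control and scaling of the methods had not been applied. The sources used here pair no probe with a gene and mark no background probes, so the gene and marker lists drawn up were not tested. The comparison, lists and tests were chosen with earlier results of these data known.

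The main test was edgeR 4.0.16 (R 4.3.3), a robust quasi-likelihood fit scaled to the 75th percentile of each region, a filter at 10 counts and Benjamini-Hochberg adjusted p under 0.05. The named probes are the 2 higher and 2 lower with the smallest p and no overlap between organs. Diabetic regions were fitted alone, and 12 regions together for the interaction. On simulated counts with 200 of 17208 probes changed, the comparison of non-diabetic organs called 137, of which 8 were unchanged. It recovered 47% of 2-fold and 82% of 4-fold changes. Apart from the changed probes all simulated regions shared 1 profile, so the scaling was right by design. The number of false calls need not hold for the real organs. Alternatives were TMM, total counts, DESeq2 1.42.0, other filters, thinning, a replicate block, larger models, the t-test named in the methods, and fits without each region in turn. Scaling to the median count and the alternatives of the 4-fold counts were added after seeing the data. Replicates differed by more than sampling noise (chi-square per degree of freedom 1.11 to 2.32).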

Additional observations from a re-analysis of the deposited data

Results flagged for a closer look

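The organ difference was not the same in non-diabetic and diabetic regions for 18 of 14414 probes (edgeR interaction test, adjusted p under 0.05). Of the 17 with the lower difference in non-diabetic regions, 16 were called lower in non-diabetic carMECs, against 12.9% of all probes in the main fit. Of these, 13 were lower by over 4-fold, against 2.02% of all probes. The changes ran from -3.39 to -1.42 on the log2 scale. The test uses the same non-diabetic difference, so the values of these probes partly follow from the choice and are a description. For these 17, the median log2 ratio of mean scaled counts was -2.91 without and -0.2 with diabetes. The remaining probe went the other way by 3.51 (adjusted p = 0.02), with scaled means of 16.2 in non-diabetic carMECs, 6.91 in non-diabetic renMECs, 2.99 in diabetic heart regions and 16.5 in diabetic renMECs. The count was 10 without cardiac region 1 and 121 with DESeq2. On simulated counts at these depths, this test recovered 33% of 4-fold changes.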

How the results depend on the processing

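The 4 named probes kept their direction and call in every alternative run on them, with log2 differences from 7.04 to 7.74 for RTS0070622, 6.85 to 7.55 for RTS0071426, -9.60 to -8.89 for RTS0080792 and -6.58 to -5.87 for RTS0061552. RTS0071426 and RTS0061552 were not tested at 10 counts in every region, with 5 counts in renal region 2 and 7 in cardiac region 2. No called probe changed direction in an edgeR or DESeq2 alternative. For the changes of scaling this was largely fixed in advance, since they shift all probes by nearly the same amount. Counts of calls depended on the processing, and the cause was not tested. Higher probes numbered 3234, against 1483 with TMM factors, 6832 with total counts, 224 with DESeq2 and 615 scaled to the median. They numbered 178 of the 3218 that reached 10 counts in every region and 292 of the 3981 that passed the filter after thinning. There were 1700 in 1 model of the 9 non-diabetic MEC regions and 1135 in 1 model of all 24 regions. The methods' t-test gave 245 after Benjamini-Hochberg adjustment. Lower probes numbered 2195, against 3996 scaled to the median, 1279 of those 3218, 1408 of those 3981 and 480 by the adjusted t-test. Over 4-fold, 69 were higher and 549 lower scaled to the median, and 19 and 131 with at least 10 counts in every region. Probes called in diabetic regions too were 49 higher and 149 lower with at least 10 counts in every region, 104 and 358 after thinning, and 365 lower with DESeq2. Interaction calls were 58 with TMM factors, 121 with DESeq2, 95 scaled to the median, 38 with at least 10 counts in every region and 6 in 1 model of all 24 regions. Leaving out 1 region gave 1604 to 3172 higher, 1604 to 2226 lower, 98 to 222 over 4-fold higher, 315 to 368 over 4-fold lower, 137 to 162 and 622 to 676 also called in diabetic regions, 10 to 26 interaction calls and a share difference of -9.67 to -7.82 points. Same-numbered regions of the 2 organs correlated at 0.019, 0.016 and 0.106 in their deviations, and differently numbered regions between -0.07 and 0.032. With 3 regions per organ these values cannot show whether the numbers pair them. With a replicate block, 3041 probes were higher and 2221 lower, and 26 had an interaction. Shallow regions limit single probes: the 75th percentile was 10 counts in cardiac region 2 and 11 in renal region 2.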
